A study of Mus musculus with 8 samples.

Results

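The replication-dependent histone genes encode the linker histone H1 and the core histones H2A, H2B, H3 and H4 that package newly made DNA. They were taken by name, as every gene of the deposited table called H1f1 to H1f5, or H2ac, H2bc, H3c or H4c with a number. The rule used no expression value, but earlier results of these data were known when the family was chosen. It gave 64 of 55359 genes, of which 5 encode H1, 18 H2A, 17 H2B, 12 H3 and 12 H4. In the GRCm39 genome 54 of them lie on chromosome 13 between positions 21899933 and 24118834, and 10 lie on chromosome 3 between 96127181 and 96177448. RNA had been sequenced from 8 untreated cultures of peritoneal mast cells (PMCs) from wild-type mice of the strain C57BL/6x129/Sv. There was 1 library each of PMC-303 and PMC-306, which are lines that arose spontaneously in culture, and there were 6 primary cultures, of which 3 came from females and 3 from males. The culture medium of the lines held less serum (FCS) and less stem cell factor (SCF) than that of the primary cultures, so that medium and transformation cannot be told apart. The libraries were made from total RNA with a stranded kit, so that transcripts without a poly(A) tail were counted. The question asked of the histone genes was how far each class differed between the lines and the primary cultures.

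Most cellular mRNAs end in a poly(A) tail, but the mRNAs of replication-dependent histones end in a short stem-loop. The stem-loop-binding protein (SLBP) binds this structure and acts in processing, translation and decay of the mRNA. These genes have no introns as a rule, sit in clusters with many copies per histone, and are transcribed mainly in S phase, when DNA is replicated. Replication-independent variants, such as H3.3, H2A.Z and macroH2A, come from other genes with ordinary polyadenylated mRNAs. Mast cells that have matured in tissue divide rarely, while cell lines divide continuously.

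The stem-loops are shown because they are the 3′ ends that total RNA libraries can count and poly(A) selection would miss. Each is written 5′ to 3′ from the GRCm39 genome, with the stem, loop and stem in capitals and 5 bases of flank on each side. A stem of 6 bases that began with GG, went on with 3 pyrimidines and ended in T, a loop of 4 bases without G and with T as its second base, and the reverse complement of the stem were searched in the 100 bases after the stop codon. This match was present for 56 of the 63 members with an annotated coding sequence, and for 8 of 21707 other protein-coding genes (0.0369%), all 8 of which were named as histone genes. It began between 22 and 59 bases after the stop codon. The most common form, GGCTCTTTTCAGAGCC, was found in 36 members of the classes H1, H2A, H2B and H3. Of the 12 H4 members, 7 held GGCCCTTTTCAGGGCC, 2 held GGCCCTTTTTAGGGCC and 2 held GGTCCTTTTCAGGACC, so that the H4 stem differed from that of the other classes. No match was found for H2ac22, H2bc21, H2bc22, H2bc23, H2bc24, H3c8 and H4c1, which says that these letters are not in this window. The stem-loops of the most abundant H1, H3 and H4 members are given. Beside them stand 1 each of H2A and H2B, a second H4 form, and that of H2bc4, to which the results return. The H2A and H2B examples are less common forms: that of H2ac20 was found in 1 member and that of H2bc3 in 8.
H1f2 (chr13:23923490-23923515, plus strand): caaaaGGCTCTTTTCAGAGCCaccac
H2ac20 (chr3:96127729-96127754, minus strand): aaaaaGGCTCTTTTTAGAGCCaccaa
H2bc3 (chr13:23931181-23931206, plus strand): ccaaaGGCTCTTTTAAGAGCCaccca
H3c2 (chr13:23936798-23936823, plus strand): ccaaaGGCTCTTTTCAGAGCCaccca
H4c4 (chr13:23765928-23765953, plus strand): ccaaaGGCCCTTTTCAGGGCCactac
H4c11 (chr13:21919602-21919627, plus strand): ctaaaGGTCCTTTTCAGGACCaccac
H2bc4 (chr13:23868625-23868650, plus strand): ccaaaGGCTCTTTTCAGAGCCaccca

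Upstream letters also went by class. They were searched on both strands of a window of 300 bases, 250 before and 50 after each annotated start. The octamer ATTTGCAT, which is described for H2B genes, was found in 7 of 17 H2B windows and 6 of 17 H2A windows, in 0 of 29 H1, H3 and H4 windows, and in 1.58% of the windows of 21707 other protein-coding genes. The letters AAACACA, described for H1 genes, were found in 3 of 5 H1 windows and in 6.60% of the windows of other protein-coding genes. In the other classes they were found in 1 of 17 H2A, 2 of 17 H2B, 1 of 12 H3 and 0 of 12 H4 windows. CCAAT was found in 52 of 63 member windows against 39.8%, and TATAAA in 35 of 63 against 13.1%. H4 windows held CCAAT in 4 of 12 cases. Many H2A and H2B genes lie head to head, on opposite strands with their starts close together. With a limit of 500 bases between starts, 12 such pairs were found, 11 of them with a gap of 176 to 306 bases between the starts. Where the windows of a pair overlap, 1 octamer can count for both classes, as it does for H2ac8 and H2bc8. The H2A and H2B counts of the octamer are therefore not separate. The shared stretch of H2ac8 and H2bc8 is given for such a pair, and the 200 bases before H1f4 and H4c4 for the other classes, with the searched letters in capitals. They show where the letters named above stand in these genes. A link between the letters and the differences in the lines was not tested.
H2ac8 and H2bc8, between both starts (chr13:23755395-23755569, plus strand): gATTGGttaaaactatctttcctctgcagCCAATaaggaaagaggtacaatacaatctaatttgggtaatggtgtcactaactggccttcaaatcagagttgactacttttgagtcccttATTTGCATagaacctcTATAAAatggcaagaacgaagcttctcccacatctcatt
H1f4 (chr13:23806542-23806741, minus strand): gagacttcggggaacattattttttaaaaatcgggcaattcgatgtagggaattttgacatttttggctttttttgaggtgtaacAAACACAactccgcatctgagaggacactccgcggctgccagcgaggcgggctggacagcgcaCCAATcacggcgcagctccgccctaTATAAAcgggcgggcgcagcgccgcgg
H4c4 (chr13:23765381-23765580, plus strand): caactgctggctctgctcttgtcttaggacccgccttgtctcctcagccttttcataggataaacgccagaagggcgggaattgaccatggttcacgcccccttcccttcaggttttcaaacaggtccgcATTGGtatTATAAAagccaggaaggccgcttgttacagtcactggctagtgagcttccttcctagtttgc

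The estimated counts per library summed to between 15918757 and 24180226, and values are given as CPM (counts per 1000000), with library sizes scaled by TMM, a trimmed mean of log ratios between libraries. A count of 3, the limit that a count of 0 allows, is between 0.123 and 0.187 CPM, and this covers counting error only. In the comparison of the lines with the primary cultures described below, 0 of the 9 mast cell markers rose, 3 fell and 6 were not called. Of all genes in that comparison 18.3% rose and 15.5% fell. The sum of the 9 markers was 45240 CPM in PMC-303, 41514 CPM in PMC-306 and from 48080 to 75791 CPM over the primary cultures. The 7 macrophage markers summed to 7.16 CPM in PMC-303, 441 CPM in PMC-306, of which Adgre1 made up 426 CPM, and from 7.22 to 68.7 CPM over the primary cultures. Markers of B cells, T cells, neutrophils, eosinophils and fibroblasts summed to at most 3.47 CPM per list in any library.

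The total of the histone members was about 7 times higher in both lines than in the primary cultures. It was 6091 and 5825 CPM in the lines PMC-303 and PMC-306, against 985, 727 and 824 CPM in female cultures 1 to 3 and 939, 1009 and 640 CPM in male cultures 1 to 3. The lines stood above all 6 primary cultures, which had a mean of 854 ± 149 CPM (SD, n = 6). This is a ratio of 7.13 for PMC-303 and of 6.82 for PMC-306. PMC-303, whose macrophage markers were as low as in the lowest primary culture, had a histone total above that of PMC-306. With 1 library per line, a link between these markers and the histone total was not tested. In bulk RNA, more cells that hold histone mRNA and more of it per cell cannot be told apart.

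All 5 classes were higher in both lines, and the ratio was largest for H3. The H3 total was 1065 and 991 CPM in the lines PMC-303 and PMC-306, and 78.2 ± 21.6 CPM (SD, n = 6) in the primary cultures, with ratios of 13.6 and 12.7. The H2A total was 819 and 745 CPM against 89.8 ± 19.9 CPM (SD, n = 6), with ratios of 9.12 and 8.30. The H4 total was 1232 and 1182 CPM against 174 ± 33.0 CPM (SD, n = 6), with ratios of 7.09 and 6.81. On the CPM scale the linker histone and H2B had lower ratios. The H2B total was 1549 and 1423 CPM against 241 ± 28.2 CPM (SD, n = 6), with ratios of 6.43 and 5.91, and the H1 total was 1426 and 1484 CPM against 272 ± 57.0 CPM (SD, n = 6), with ratios of 5.25 and 5.46. The order of H2B and H4 depended on the scale, since by TPM the H2B ratios were 9.42 and 9.30 and the H4 ratios 8.10 and 7.97. Without its most abundant member the H2B ratio in PMC-306 was 8.97. H3 had the largest ratio on both scales. No class total of a line overlapped with a primary culture. A class total does not depend on how reads were split between near-identical genes of the class, though reads can also be shared beyond the class. H3 and H2A genes share sequence with the noncoding gene Gm20634, H2bc18 shares 56.1% of its stretches of 31 bases with the noncoding gene Gm42743, and H1f4 shares 26.2% with H2bc6. The class totals were given no test, since each line has 1 library.

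**Figure D1:**
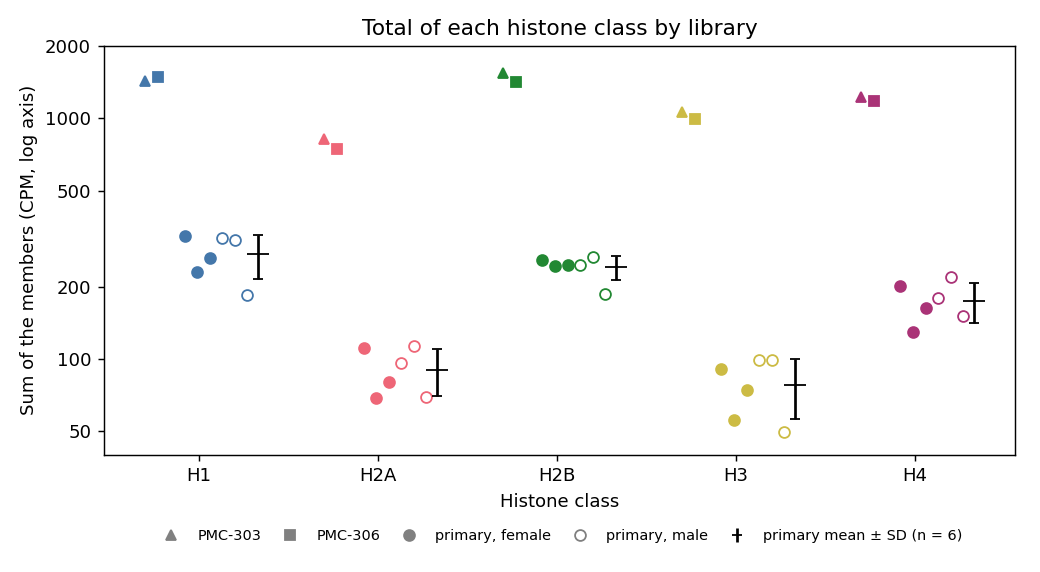
Sum of the CPM of the members of each histone class (log axis) in each library, with PMC-303 as triangles, PMC-306 as squares, female primary cultures as filled and male as open circles, and the primary mean ± SD as a bar. In each class both lines lie above all 6 primary cultures, from 745 to 1549 CPM against 49.9 to 325 CPM.

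Per transcript length, the composition of the histone mRNA also differed, and the share of H3 was the one furthest from the primary cultures. In the deposited TPM values, which are scaled for length, H3 made up 17.1% of the members' sum in PMC-303 and 16.6% in PMC-306, against 10.4 ± 1.36% (SD, n = 6) and at most 12.4% in the primary cultures. These shares were given no test. The shares of H1 (9.11% and 9.69%) and H4 (26.1% and 26.3%) lay below the lowest primary culture, which had 11.3% H1 and 28.5% H4. H2A was at 18.7% and 18.1%, above the highest primary culture with 17.8%, and H2B was at 29.1% and 29.4%, within the primary range from 27.2% to 32.1%. By CPM, which is not scaled for length, the positions of H4 and H2B were exchanged: H4 was at 20.2% and 20.3%, within the primary range from 17.8% to 23.6%, and H2B at 25.4% and 24.4%, below the lowest primary culture with 26.2%. The share of H3 was above and that of H1 below all primary cultures on both scales. All members together came to 13593 TPM in PMC-303, 13279 TPM in PMC-306 and 1432 ± 381 TPM (SD, n = 6) in the primary cultures. The ratios by TPM, 9.49 and 9.27, were higher than those by CPM.

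Gene by gene, 60 of the 64 members had enough counts to be tested, and 55 of the 60 rose in the lines while 0 fell. Both lines together were compared with the 6 primary cultures by limma on log2(CPM + 0.1) over 14529 genes, with a call at an adjusted p under 0.05. Of all genes tested 18.3% rose and 15.5% fell. The median log2 difference was 3.51 over the 60 members and -0.01 over all genes. In 57 of the 60 members both lines were above every primary culture, which was so for 23% of all genes, and in 0 were both below every primary culture, which was so for 20.1%. Of the 60, 58 also passed the stricter filter of the comparison between the sexes, which needs 3 of the 6 primary cultures, and of these 53 rose. The other 2 were H2ac12 and H2ac13. H2ac13 reached the level of the main filter in female culture 1 and male culture 1. H2ac12 passed only through the lines, where it is high, so that its call is not independent of the filter. The adjusted p of the 55 lay between 5.41e-05 and 0.00580. By class, 5 of 5 tested H1 genes, 15 of 16 H2A, 13 of 16 H2B, 11 of 11 H3 and 11 of 12 H4 genes rose, with median log2 differences of 2.68, 3.54, 3.45, 3.82 and 3.01. On chromosome 13, 46 of 51 tested members rose with a median of 3.55, and on chromosome 3, 9 of 9 with a median of 2.80.

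**Figure D2:**
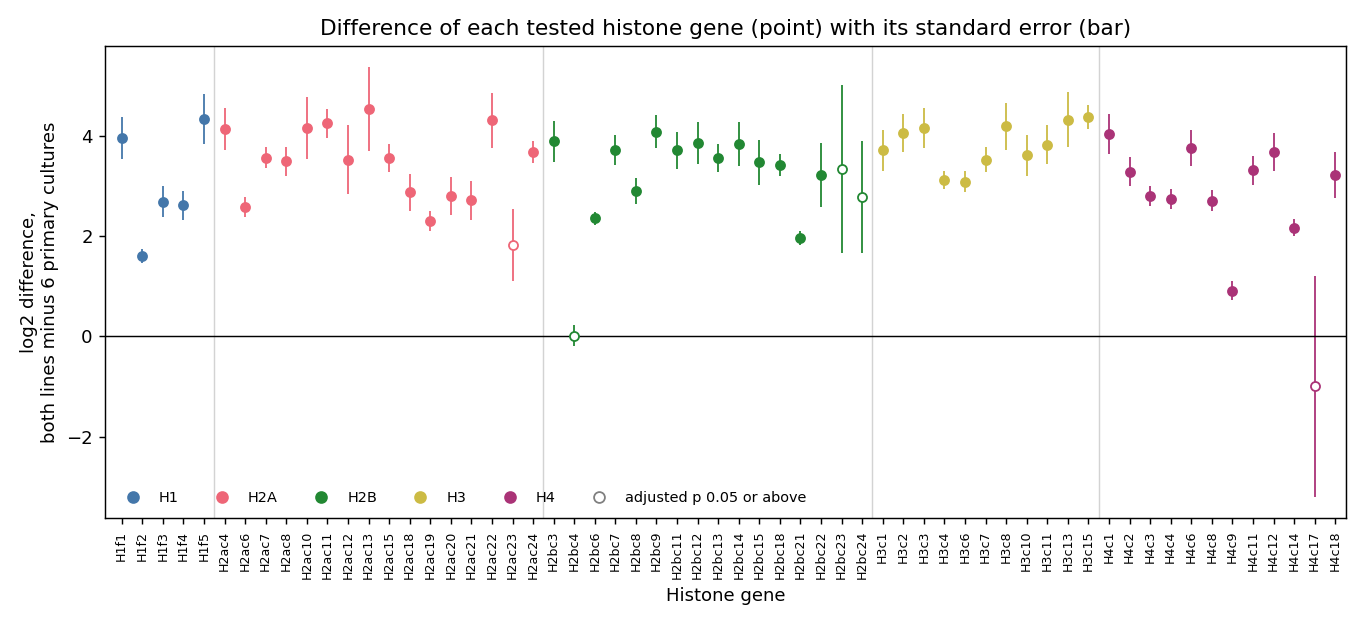
Log2 difference of both lines from the 6 primary cultures for each of the 60 tested histone genes, by class, with the standard error of limma as a bar and open points for an adjusted p of 0.05 or above. The 55 filled points lie between 0.91 and 4.53, and the 5 open points are H2ac23, H2bc4, H2bc23, H2bc24 and H4c17. The filled point of H2ac12 belongs to a gene that passed the filter on low counts only through the lines.

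The 4 untested members had few or no counts. H2ac1 and H2bc1, a head-to-head pair described for testis, and H3c14 had a count of 0 in all 8 libraries, and H2ac14, for which the annotation gives no coding sequence, had 2.38 counts in PMC-303 and 0 elsewhere. H3c14 has the same coding sequence as H3c15, and every stretch of 31 bases of its transcript also occurs in the annotated noncoding gene Gm20634, which overlaps it on the same strand. Gm20634 had 1082 and 816 counts in the lines and between 232 and 519 counts in the primary cultures, so that a count of 0 for H3c14 does not show that it was silent.

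All 5 H1 genes rose. H1f2 (chromosome 13, 23922791 to 23924350), a somatic linker histone, had 373 and 436 CPM in the lines PMC-303 and PMC-306. In the primary cultures it had 151, 124 and 120 CPM (female 1 to 3) and 157, 140 and 109 CPM (male 1 to 3). The lines did not overlap with the primary cultures, but the log2 difference of 1.60 ± 0.15 (SE, adjusted p = 0.000155) was the smallest of the class. H1f4 had 395 and 399 CPM against 84.5, 50.5, 64.6, 88.6, 76.2 and 40.3 CPM in the same order (log2 difference 2.61 ± 0.28 SE, adjusted p = 0.000315). H1f3 had 297 and 313 CPM against 63.1, 39.6, 50.3, 50.1, 67.5 and 26.8 CPM (2.68 ± 0.31, adjusted p = 0.000409). For H1f4 and H1f3 male culture 3 was lowest and both lines were over 4 times the highest primary culture. H1f5 had 188 and 180 CPM against 11.4, 6.68, 13.6, 12.4, 12.8 and 3.25 CPM, and its difference of 4.34 ± 0.50 (SE, adjusted p = 0.000428) was the largest of the class. H1f1 rose by 3.96 ± 0.42 (SE, adjusted p = 0.000269).

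In the H2A class H2ac19 on chromosome 3 had the highest level per length in the primary cultures, with a mean of 84.7 TPM. H2ac19 (96147065 to 96147592) had 147 and 157 CPM in PMC-303 and PMC-306, and 35.6, 20.6, 33.4, 31.2, 37.5 and 28.7 CPM in female 1 to 3 and male 1 to 3 (log2 difference 2.30 ± 0.20 SE, adjusted p = 0.000141). Its copy H2ac18, which has the same coding sequence, had 91.1 and 84.0 CPM against 17.3, 12.1, 5.46, 12.7, 16.04 and 11.8 CPM (2.87 ± 0.37, adjusted p = 0.000745). Reads of both cannot be told apart over the coding sequence, and as a sum they had 238 and 241 CPM against 43.7 ± 8.21 CPM (SD, n = 6). Every stretch of 31 bases of H2ac19, and 89.7% of those of H2ac18, also occur in the noncoding gene Gm20634. The level and rank of H2ac19 and this sum therefore also depend on how reads were split with Gm20634. H2ac4 on chromosome 13 had a larger difference than both. It had 161 and 140 CPM against 12.6, 6.58, 8.55, 11.1, 11.9 and 3.79 CPM (4.14 ± 0.42, adjusted p = 0.000234). H2ac24 had 122 and 107 CPM against 11.6, 6.44, 8.44, 9.95, 10.2 and 7.33 CPM (3.68 ± 0.22, adjusted p = 5.41e-05). In none of these genes did a line overlap with a primary culture. H2ac13 had 12.2 and 10.4 CPM against 1.23, 0.128, 0.144, 1.65, 0.273 and 0.196 CPM, and 4 of its primary values were within a few counts of 0. Female culture 1 and male culture 1 reached the filter level on low counts, so that it did not pass through the lines alone. Its fitted difference of 4.53 ± 0.84 (SE, adjusted p = 0.00410) was the largest of any member and rests on these low primary values.

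The H2B class held large rises and the gene with the difference closest to 0. H2bc3 had 270 and 240 CPM in the lines PMC-303 and PMC-306, and 24.01, 12.5, 19.9, 21.3, 24.4 and 7.86 CPM in female 1 to 3 and male 1 to 3 (log2 difference 3.89 ± 0.41 SE, adjusted p = 0.000268). H2bc8 had 218 and 206 CPM against 37.2, 20.6, 31.6, 31.9, 33.9 and 19.2 CPM (2.91 ± 0.26, adjusted p = 0.000141). H2bc6 had 187 and 154 CPM against 33.9, 33.6, 32.5, 34.7, 38.6 and 27.0 CPM (2.35 ± 0.13, adjusted p = 5.41e-05). In these 3 genes both lines were above every primary culture. H2bc6 and H2bc8 encode the same protein as H2bc4, whose lines and primary cultures overlapped. H2bc4 had 109 and 74.5 CPM in the lines PMC-303 and PMC-306, and 78.0, 129, 84.6, 80.0, 82.9 and 88.1 CPM in the primary cultures. The lines lay on both sides of the primary mean of 90.4 ± 19.2 CPM (SD, n = 6), and the log2 difference was 0.02 ± 0.21 (SE, adjusted p = 0.962). Its sign turned in some alternatives, from -0.25 without PMC-303 to 0.29 without PMC-306, and its adjusted p stayed between 0.433 and 0.999. Among H2B genes H2bc4 had the highest level per length in the primary cultures, 90.5 ± 21.6 TPM (SD, n = 6), and in the lines, at 117 and 83.2 TPM, it was below H2bc3 with 832 and 768 TPM.

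The annotated transcript of H2bc4 (23867631 to 23878163) is spliced. The first exon ends 9 bases after the stop codon at position 23868604, and the second exon starts at 23876159. The stem-loop printed above, 35 bases after the stop codon, lies between both exons and is not in the spliced transcript. The deposited transcript table has a single transcript for H2bc4, to which all of its counts were assigned. Its head-to-head partner H2ac6, whose annotated transcript overlaps that of H2bc4 on the opposite strand (whether counting used strand was not given in the sources used here), had 36.4 and 30.4 CPM in the lines against 5.55 ± 0.983 CPM (SD, n = 6), a log2 difference of 2.58 ± 0.19 (SE, adjusted p = 8.44e-05). Of the 11 head-to-head pairs that were tested on both sides, both genes rose in 8, and the other 3 pairs held H2bc4, H2bc24 and the pair of H2bc23 and H2ac23. Apart from these 3, the differences of both genes of a pair lay within 1.09 log2 units of each other.

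H3 genes rose over a narrower range of differences, from 3.09 to 4.38. H3c2 had 204 and 176 CPM in PMC-303 and PMC-306, and 13.1, 8.27, 12.95, 15.1, 16.8 and 5.72 CPM in female 1 to 3 and male 1 to 3 (log2 difference 4.06 ± 0.38 SE, adjusted p = 0.000166). H3c6 had 137 and 141 CPM against 17.7, 12.3, 14.1, 20.5, 20.8 and 14.3 CPM (3.09 ± 0.21, adjusted p = 6.04e-05). Its neighbour H3c7 had 122 CPM in each line against 11.9, 7.35, 9.65, 14.2, 13.5 and 8.35 CPM (3.52 ± 0.25, adjusted p = 7.91e-05). All 11 tested H3 genes were above every primary culture in both lines. H3c3 had 122 and 107 CPM against 8.92, 4.51, 6.78, 8.44, 8.89 and 3.11 CPM (4.16 ± 0.40, adjusted p = 0.000183). H3c15 (chromosome 3, 96145424 to 96146443) had 113 and 117 CPM against 7.36, 5.23, 5.01, 6.36, 5.81 and 3.59 CPM. Its fitted difference of 4.38 ± 0.23 (SE, adjusted p = 5.41e-05) was the largest of the class. Of its stretches of 31 bases, 64.2% also occur in the noncoding gene Gm20634. Gm20634 had 44.5 and 40.1 CPM in the lines PMC-303 and PMC-306, and 16.95 ± 3.87 CPM (SD, n = 6) in the primary cultures. The difference of H3c15 and its rank therefore also depend on how reads were split with Gm20634. The 12 H3 genes encode 2 proteins, which are known as H3.1 and H3.2. The 4 genes with the protein of H3c1 (H3.1) summed to 226 and 202 CPM against 15.5 ± 5.62 CPM (SD, n = 6), and the 8 genes with the protein of H3c2 (H3.2) to 839 and 789 CPM against 62.7 ± 16.2 CPM (SD, n = 6). The ratios of both proteins were near each other, 14.6 and 13.04 for the first and 13.4 and 12.6 for the second.

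The 12 H4 genes all encode 1 protein, and 11 of them rose. H4c4 had 257 and 271 CPM in PMC-303 and PMC-306, and 46.0, 28.1, 38.4, 45.6, 47.7 and 35.0 CPM in female 1 to 3 and male 1 to 3 (log2 difference 2.74 ± 0.19 SE, adjusted p = 7.91e-05). H4c8 had 209 and 195 CPM against 36.6, 21.3, 25.8, 34.8, 38.8 and 31.05 CPM (2.71 ± 0.22, adjusted p = 9.79e-05), and per length it was the highest of all members in the primary cultures, at 101 ± 24.1 TPM (SD, n = 6). H4c3 had 145 and 139 CPM against 23.3, 15.1, 19.2, 19.2, 28.5 and 19.1 CPM (2.80 ± 0.20, adjusted p = 7.91e-05). In each of these genes the lines were more than 4 times the highest primary culture. H4c9 rose least of all called members, from 10.002 ± 1.62 CPM (SD, n = 6) to 20.9 and 16.8 CPM (0.91 ± 0.18 SE, adjusted p = 0.00580). H4c18 had 173 and 151 CPM against 14.01, 23.8, 26.9, 8.53, 11.97 and 28.9 CPM (3.22 ± 0.45, adjusted p = 0.00108). Its copy H4c17 had 1.58 and 1.16 CPM in the lines and 22.1, 0, 1.37, 21.5, 26.1 and 0.226 CPM in the primary cultures, with a log2 difference of -0.997 ± 2.20 (SE, adjusted p = 0.760).

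H4c17 and H4c18 have the same coding sequence, and their values traded places between cultures. H4c17 was above 21 CPM in female culture 1 and in male cultures 1 and 2, where H4c18 was at most 14.01 CPM, and H4c17 was under 1.4 CPM in the other 3, where H4c18 was at least 23.8 CPM. Their sum ranged from 23.8 to 38.1 CPM over the primary cultures, and was 175 and 152 CPM in the lines PMC-303 and PMC-306. A like division was seen for H2bc23 and H2bc24, whose canonical transcripts share every stretch of 31 bases. H2bc23 had 59.3 CPM in PMC-303, 20.7 CPM in PMC-306 and from 0 to 11.9 CPM over the primary cultures, and H2bc24 had 8.95 CPM, 51.2 CPM and between 0.927 and 12.8 CPM. Singly, neither was called (adjusted p = 0.161 and 0.0883), and their order was opposite in the lines. Their sum was 68.3 and 71.9 CPM against 11.7 ± 2.31 CPM (SD, n = 6).

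In an analysis added after these values were seen, the counts of the 5 pairs with identical coding sequences were summed before the test. This left 56 genes or pairs, of which 55 rose, with 18.3% of all genes rising. H4c17 and H4c18 together rose by 2.41 ± 0.17 (SE, adjusted p = 7.49e-05), H2bc23 and H2bc24 by 2.59 ± 0.20 (adjusted p = 8.81e-05), and H2ac23 and H2ac24 by 3.54 ± 0.21 (adjusted p = 5.36e-05). H2ac23 alone had been at 4.0035 and 3.40 CPM against 0.322 to 3.09 CPM (1.82 ± 0.72 SE, adjusted p = 0.0838, from 0.0246 to 0.254 over 21 alternatives), and without male culture 2 it was called (2.14, adjusted p = 0.0316). H2bc23 was called without male culture 1, which had 0 counts of it (2.31, adjusted p = 0.0323, and up to 0.454 in the other alternatives). The gene that was not called after summing was H2bc4.

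**Figure D3:**
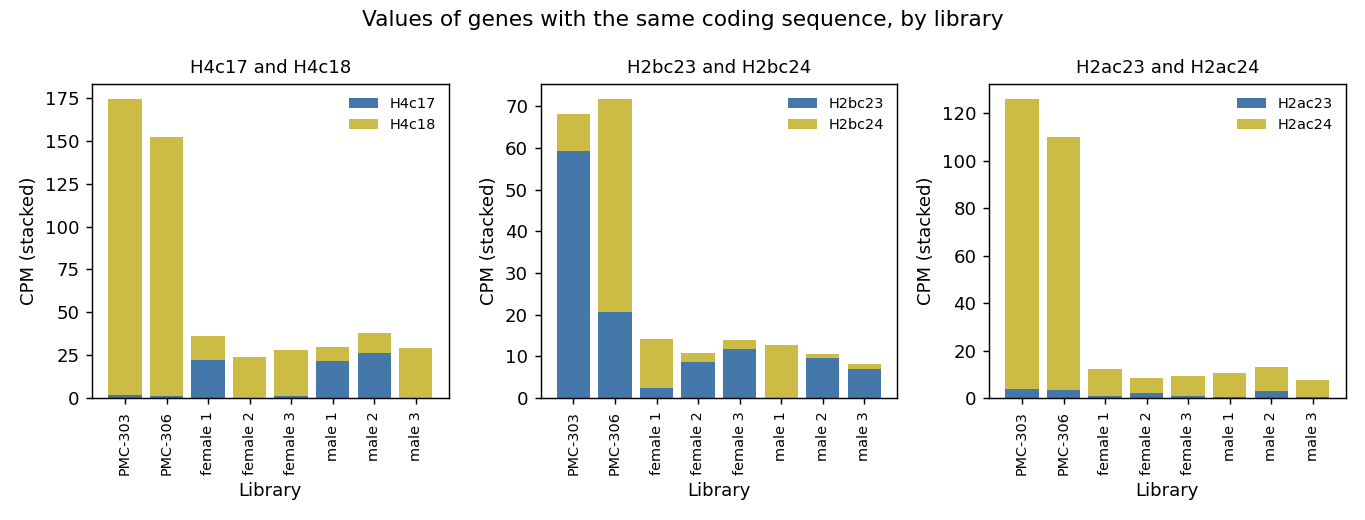
Stacked CPM of 3 pairs of histone genes with identical coding sequences in each library. The division of each bar between both copies changes from library to library, while the height of the bar in the 6 primary cultures stays between 23.8 and 38.1 CPM for that pair and below 15 CPM for the others.

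Sequence sharing was common in the rest of the family too. Of the 63 members with a coding sequence, 44 encode a protein that at least 1 other member also encodes, and there are 27 different proteins among them. Over their canonical transcripts the median member had 40.7% of its stretches of 31 bases in no other gene, and 20 members had under 20%. Values of single members are therefore uncertain, while sums over a class do not depend on the division within it, beside the sharing beyond the class named above. H2bc4 with 69.4% and H1f2 with 88.6% unique stretches were among the members measured with more sequence of their own.

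Members with longer annotated transcripts had smaller differences on the whole, a description made after the values were seen. The 44 tested members with 1 exon and under 1000 bases had a median log2 difference of 3.64. The 11 with 1 exon and at least 1000 bases had a median of 2.68, from 1.60 for H1f2 to 4.38 for H3c15, and the 5 with more than 1 exon lay between 0.02 for H2bc4 and 3.33 for H2bc23. Among the 15 members with the smallest differences 9 were of these longer kinds, as were 16 of all 60. Across the 60 members Pearson's r between the difference and log2 transcript length was -0.34 and Spearman's rho was -0.36. The points share their libraries and in part their sequences, and no test was made. Many of the long transcripts run past the stem-loop in the annotation, while that of H2bc4 leaves it out and no match was found for H2bc21, H2bc23 and H2bc24. H1f2 goes on for 840 bases after it, H2bc6 for 2919 and H4c14 for 1257, and these 3 rose by 1.60, 2.35 and 2.17. H2bc9, with 1214 such bases in a transcript of 1679 bases, rose by 4.08. H3c15 with 377 and H2ac4 with 11 such bases rose by 4.38 and 4.14, where the value of H3c15 depends on the split of reads with Gm20634. H1f3, with 4884 such bases and the longest transcript of the family, rose by 2.68, and H4c9 is a gene with a small difference and a transcript of 727 bases. Whether reads came from the stretch after the stem-loop was not tested, since the files give counts per transcript and not per base.

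**Figure D4:**
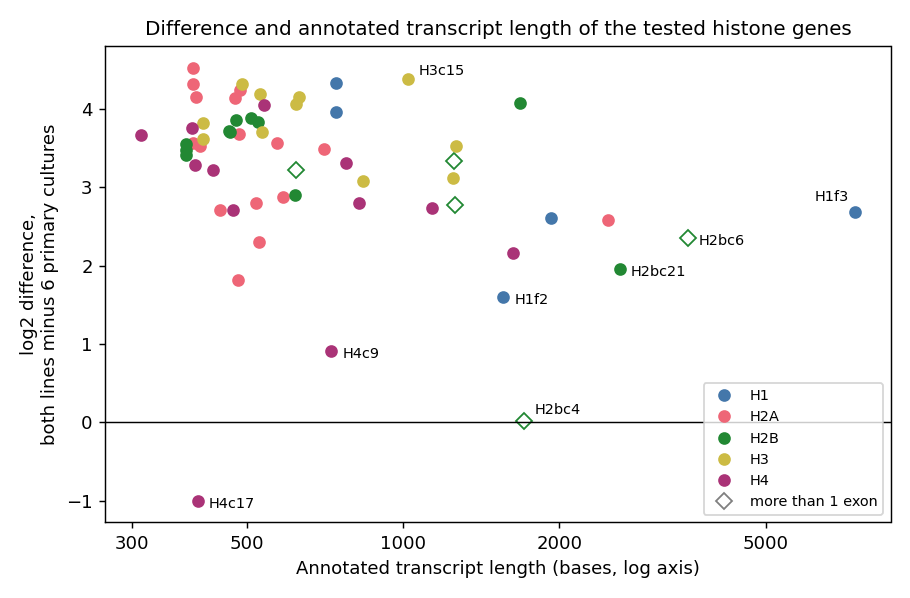
Log2 difference of both lines from the 6 primary cultures against the annotated transcript length (log axis) for the 60 tested histone genes, with colours for classes and open diamonds for transcripts of more than 1 exon. The 44 genes of 1 exon under 1000 bases have a median of 3.64, and H2bc4, H1f2, H2bc21 and H2bc6, which are 1560 bases or longer, lie between 0.02 and 2.35, while H2bc9 at 1679 bases lies at 4.08.

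PMC-306 had a lower total than PMC-303 in 4 of the 5 classes. With 1 library each this has no replicate check. The total in PMC-306 was 95.6% of that in PMC-303, and by class it was 104% for H1, 91.0% for H2A, 91.8% for H2B, 93.1% for H3 and 95.9% for H4. Over the 55 called members the value in PMC-306 was between 0.493 and 1.17 times that in PMC-303, with a median of 0.932. The lowest ratio was that of H2ac12, with 5.57 and 2.696 CPM in the lines PMC-303 and PMC-306. For 43 of the 60 tested members the value was higher in PMC-303. The share over all genes was not taken, so this count is not read as a trait of the histone genes.

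Within the primary cultures most histone genes were low in the same cultures, of both sexes. The SD of a called member was at the median 31.8% of its mean. Male culture 3 had the lowest value for 31 of the 55 called members and female culture 2 for 17, while male culture 2 had the highest for 28. The totals of both sexes overlapped, at 846 ± 130 CPM (SD, n = 3) in female and 863 ± 196 CPM (SD, n = 3) in male cultures. Between the sexes, 58 members were tested among 13710 genes, and 0 were called by limma at an adjusted p under 0.05, as were 0 at an unadjusted p under 0.05. Of all genes 6 (0.0438%) were called, and 464 had an unadjusted p under 0.05. The smallest unadjusted p of a member was 0.0962. Of the 58, 29 were higher in female and 29 in male cultures, with a median log2 difference of 0.0015, but this balance rested on single libraries. Without male culture 3, 7 of 59 members were higher in female cultures (median -0.33), and without female culture 2 it was 44 of 59 (median 0.19). Without female culture 1 it was 17 of 58 (median -0.16). No member was called in any of these fits. Genes of the S phase list were summed beside them, and this sum was also lowest in male culture 3, at 1060 CPM, and second lowest in female culture 2, at 1172 CPM, against 1233 to 1311 CPM in the other 4. The part of the S phase genes in the spread of the histone genes was not tested.

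Genes of the other lists had smaller median differences than the histone genes. Of the 43 S phase genes, which act in DNA replication and its control, 39 rose and 0 fell, with a median log2 difference of 2.32. Among all genes 18.3% rose and 15.5% fell. Another list also holds 5 of these genes. Pcna, the sliding clamp of DNA polymerases, had 331 and 276 CPM against 95.1 ± 5.89 CPM (SD, n = 6) (1.67 ± 0.09 SE, adjusted p = 5.41e-05), and Atad2 rose by 1.90 ± 0.26 (adjusted p = 0.000943). Rfc2, a subunit of the clamp loader and the most abundant gene of the list, had 182 and 239 CPM against 232 ± 10.1 CPM (SD, n = 6) (-0.15 ± 0.10, adjusted p = 0.279). Without PMC-306 it was lower at -0.35 (adjusted p = 0.0234), without PMC-303 it was at 0.05, and over 21 alternatives its adjusted p ranged up to 0.836.

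Of the replication-independent variants 20 names were in the table and 13 were tested. Of these 11 rose and 0 fell, against 18.3% and 15.5% of all genes, with a median of 1.35. The most abundant were H2az1, which encodes H2A.Z and rose by 1.25 ± 0.10 (adjusted p = 9.07e-05), H3f3a (0.32 ± 0.08, adjusted p = 0.0134) and H3f3b (0.79 ± 0.09, adjusted p = 0.000329), which both encode H3.3. Not all of the 13 are genes without a stem-loop: H2ax, H2aw, H2bu2 and H4f16 hold the match described above, and the GENCODE M39 annotation names the last 3 H2ac25, H2bc27 and H4c16. These 4 rose by 3.15, 0.89, 2.54 and 2.13. The call of H3f3a was lost without PMC-306 (adjusted p = 0.0903, from 0.00505 to 0.127 over 21 alternatives). H2ax, which encodes the variant phosphorylated at DNA breaks, rose by 3.15 ± 0.14 (adjusted p = 5.41e-05) and Cenpa, the H3 variant of centromeres, by 3.58 ± 0.39 (adjusted p = 0.000321), and both were named after their values were seen.

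Of 30 tested genes for 3′ end formation, transcription and decay of histone mRNA, 13 rose and 1 fell, with a median of 0.33. Among all genes 18.3% rose and 15.5% fell. Slbp, which encodes the protein that binds the stem-loop, had 126 and 116 CPM against 43.3 ± 3.78 CPM (SD, n = 6), a difference of 1.49 ± 0.10 (SE, adjusted p = 5.57e-05). Npat, the coactivator of histone transcription, rose by 0.64 ± 0.11 (adjusted p = 0.00293), and Lsm11, a protein of the U7 particle that cuts these mRNAs, by 0.65 ± 0.11 (adjusted p = 0.00255). These 3 were named after their values were seen. Lsm10, the partner of Lsm11, was lower at -0.37 ± 0.12 (adjusted p = 0.0398), with 12.4 and 11.2 CPM against 15.3 ± 1.32 CPM (SD, n = 6), and this call was lost without any single library other than female culture 3 (adjusted p from 0.0267 to 0.439 over 21 alternatives). Of the most abundant genes, Snrpb rose by 0.73 ± 0.08 (adjusted p = 0.000280), while Tut7 was at -0.26 ± 0.09 (adjusted p = 0.0664) and Cpsf2 at 0.16 ± 0.08 (adjusted p = 0.189).

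Of 29 histone chaperones and import factors 23 rose and 3 fell, against 18.3% and 15.5% of all genes, with a median of 0.82. Npm1 rose by 0.68 ± 0.13 (adjusted p = 0.00511) and Set by 0.83 ± 0.08 (adjusted p = 0.000214). Against the female cultures alone the call of Npm1 was lost (0.63, adjusted p = 0.0575). Asf1b, a chaperone of H3 and H4, rose by 2.92 ± 0.30 (adjusted p = 0.000255) and Hjurp, the chaperone of Cenpa, by 2.64 ± 0.16 (adjusted p = 5.41e-05), both named after their values were seen. Atrx, which acts in placing H3.3, had 399 and 425 CPM against 414 ± 42.0 CPM (SD, n = 6) (-0.0022 ± 0.11 SE, adjusted p = 0.989), and its sign turned with plain totals as the scaling. The 3 that fell were Ipo4, an import receptor of H3 and H4 (-0.55 ± 0.10, adjusted p = 0.00424), Ubn2 (-0.57 ± 0.14, adjusted p = 0.0161) and Cabin1 (-0.34 ± 0.11, adjusted p = 0.0367), both of which are subunits of the HIRA complex that places H3.3. The call of Ubn2 was lost without PMC-303 (adjusted p = 0.139, from 0.0114 over 21 alternatives), and that of Cabin1 without any single library other than PMC-306 and male culture 1 (adjusted p from 0.00992 to 0.309).

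Other short RNAs without a poly(A) tail, which total RNA libraries also count, were given beside the histone mRNAs. Of 17 tested entries, 1 rose and 1 fell, against 18.3% and 15.5% of all genes, with a median of -0.23. Rpph1, the RNA of ribonuclease P, had 1353 and 1614 CPM against 3435 ± 1589 CPM (SD, n = 6) (-1.04 ± 0.53 SE, adjusted p = 0.166), and it was lower without female culture 3 (-1.32, adjusted p = 0.0272, and up to 0.520 over 21 alternatives). Rmrp, the RNA of ribonuclease MRP, has 2 entries, at 0.11 ± 0.30 (adjusted p = 0.799) and 0.58 ± 0.42 (adjusted p = 0.329). Snora73b, a small nucleolar RNA, fell by 1.20 on the log2 scale (adjusted p = 0.00635), and Scarna10 rose by 0.96 (adjusted p = 0.0311). The call of Snora73b was lost against the female cultures alone (-1.01, adjusted p = 0.0763). The sum of this list ranged from 2441 to 7637 CPM over the primary cultures and 3216 and 3339 CPM in PMC-303 and PMC-306, within that range. Among the primary cultures the sum was highest in male culture 3, which had the lowest histone total. The other cultures did not follow an inverse order. Male culture 2 and female culture 1, with the highest histone totals, had 6454 and 6406 CPM of these RNAs. Female culture 2, with the second lowest histone total, had 3201 CPM.

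**Figure D5:**
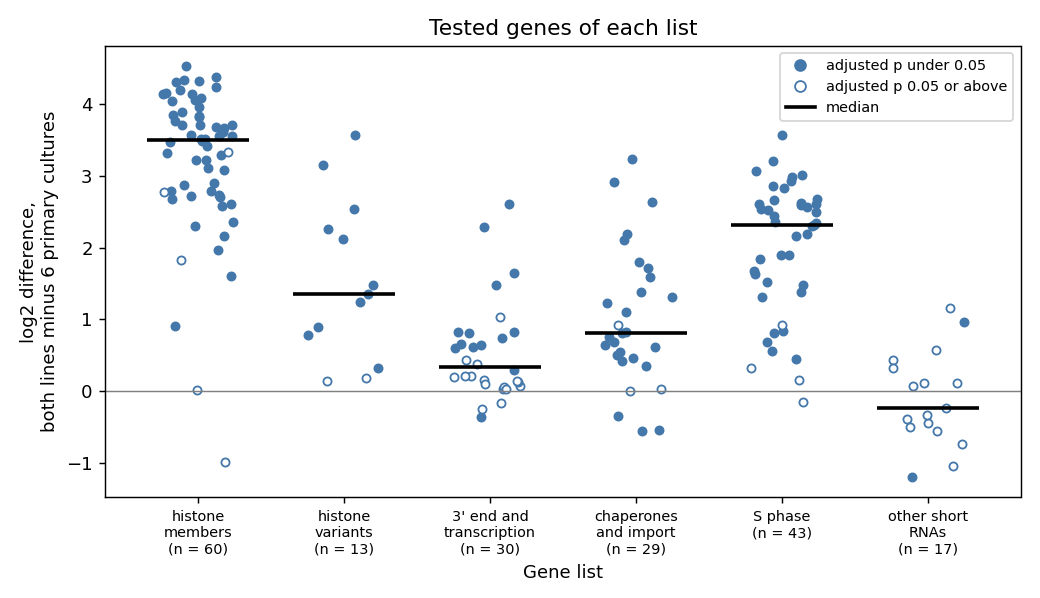
Log2 difference of both lines from the 6 primary cultures for the tested genes of each list, with filled points for an adjusted p under 0.05 and a bar at the median. The histone members have a median of 3.51, the S phase genes of 2.32, the histone variants of 1.35 and the other short RNAs of -0.23.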

How the data were processed

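The authors prepared stranded total RNA libraries, trimmed reads with Trim Galore 0.6.7, aligned them to GRCm39 with STAR 2.7.9a and estimated counts with Salmon 1.5.2, and they deposited estimated counts without normalization, per gene and per transcript, together with TPM values. The annotation release was not given in the sources used here. A spreadsheet program had rewritten 3.37% of the gene count cells and 96 of the 512 member cells, which were set back to numbers, and members then equalled the sums of their transcripts. In 2 member cells a date had 2 readings, which differ by at most 0.54 counts. In 9308 TPM cells the point was placed to fit the counts. Since the cells were in part text, no count model was used.

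Genes with about 10 counts in at least 2 libraries (3 between sexes) and 15 in total were tested with limma 3.58.1 in R 4.3.3 on log2(CPM + 0.1). The prior variance followed the mean level, and p-values were adjusted over all genes tested by the Benjamini-Hochberg method. Differences are on the log2(CPM + 0.1) scale, which understates low genes, and errors given with ± are standard errors where n is not stated. p-values measure the spread between these cultures. The procedure was tested on simulated data. Sequences and exons were read from GRCm39 with GENCODE release M39, using its canonical transcript per gene. Calculations used Python 3.11.15, numpy 2.4.6, pandas 2.3.3 and Biopython.

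The members and lists were chosen with earlier results of these data known. Named are the 4 most abundant members of each class by mean CPM, the 3 largest differences, members without counts, and of each other list the 3 most abundant genes and all that fell. Outside this rule, H1f1, H2ac6, H2ac12, H2ac20, H2ac23, H2bc21, H2bc23, H2bc24, H4c9, H4c11, H4c14, H4c17, Scarna10, H2aw, H2bc9, H2bc18, H2bu2, H4f16, Gm20634, Gm42743 and the genes so marked were named after their values were seen. Other scalings, offsets, filters, voom weights, TPM, sums of transcripts, either sex alone and each library left out were tried. The H3.3 genes are named H3f3a and H3f3b in the table. Columns of the authors' own comparisons were not present in the tables used.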

Additional observations from a re-analysis of the deposited data

Results flagged for a closer look

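Of 37 values checked over the 6 primary cultures, 2 had a culture far from the other 5, and chance alone marks about 1 in 20. H2bc4 had 129 CPM in female culture 2 and between 78.0 and 88.1 CPM in the other 5 primary cultures. The H2B class total was 186 CPM in male culture 3 and between 243 and 265 CPM in the others. Without female culture 2 the log2 difference of H2bc4 between the lines and the primary cultures was 0.12, and without male culture 3 the H2B ratio was 6.15 for PMC-303 and 5.65 for PMC-306.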

How the results depend on the processing

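Over the histone genes the calls were stable: 55 or 56 members rose and 0 fell in each of the alternatives run, which were other offsets, scalings, filters, voom weights, TPM, transcript sums, either sex alone and each library left out. Between 3 female or 3 male primary cultures and the lines, 2146 and 3032 genes were called, against 4920 with all 6. Plain totals gave 3406 higher and 1665 lower calls and TPM 2347 and 964, against 2665 and 2255, and they moved the median of all genes by 0.11 and 0.14 on the log2 scale. By TPM the H1 ratio was 6.94 for PMC-303 and 7.22 for PMC-306, and the H2B ratio 9.42 and 9.30. Without the most abundant member of the class, the H1 ratio was 7.62 and 7.58, that of H2A in PMC-303 11.5, and that of H2B 9.58 and 8.97.

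Signs turned for 4 genes with differences near 0. H2bc4 was at -0.079 against the female cultures and between -0.25 and 0.29 with a library left out (-0.018 without female culture 1, -0.015 and -0.0049 without male cultures 1 and 2). Atrx was at 0.11 with plain totals, 0.00077 with TMM without the histone genes, 0.12 by TPM and 0.10 against the male cultures, and between -0.047 and 0.05 with a library left out (0.0036, 0.0086 and 0.048 without female cultures 1 to 3). Rfc2 lay between -0.35 and 0.05, and the larger Rmrp entry was at -0.17 against the male cultures and between -0.012 and 0.24 with a library left out. The cause of these changes was not tested.

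The replicate numbers of the female and male cultures did not pair them (r = 0.41, -0.22 and 0.28 for cultures 1, 2 and 3). With the replicate block 5 genes and 0 histone members differed between the sexes. Sums of identical copies were an alternative added after seeing the data. With 1 library per line, a line left out leaves a single library that is assumed to vary like the primary cultures.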
